A study of Mus musculus with 22 samples.

Results

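The step from the first to the second day of culture of mouse primordial germ cells (PGCs), at which a set of kinase inhibitors came into the medium, was described from 2 of the 22 arrays of the series: the array at day 2 with bFGF, 2i and A83-01 and the array at day 1 with bFGF alone, both taken by their titles. The series followed PGCs on their way to embryonic germ cells (EGCs), tested single additions at day 2 and forced germ cell genes in embryonic stem cells (ESCs), with 1 Agilent 1-colour array per group and no replicates. Both cultures started from PGCs of embryos at E11.5, and the RNA came from SSEA-1-positive cells, SSEA-1 being a surface sugar of PGCs and pluripotent cells. The medium, which held knockout serum replacement, LIF and, for EGC induction, bFGF, was common to both. The day 2 culture also received 2i, that is the MEK inhibitor PD325901 (1 µM) and the GSK inhibitor CHIR99021 (3 µM), together with A83-01 (250 nM), an inhibitor of the activin, Nodal and TGF-beta type I receptors. Day and inhibitors thus changed together, and their parts in a difference between these 2 arrays cannot be told apart; a further array, day 2 with bFGF alone, gave the same day without the inhibitors and is set beside them. It shares the day 1 array as its reference. The strain, the sex and the number of embryos are not given in the sources used here. Xist, an RNA of the X chromosome in female cells, was lower at day 2 with the inhibitors than at day 1 (log2 difference -2.59). Whether the 2 cultures were alike in sex was not tested.

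PGCs are the founders of sperm and eggs, and in culture with bFGF, stem cell factor and LIF some of them turn into EGCs, which resemble ESCs. MEK passes signals of receptors such as the FGF receptors on to ERK, which switches on its own feedback inhibitors (Dusp, Spry) and the ETS factors Etv1, Etv4 and Etv5; inhibition of GSK3 stabilises beta-catenin, the coactivator of TCF and LEF factors; the receptors that A83-01 blocks phosphorylate Smad2 and Smad3. Inhibitors of MEK and of GSK3 together hold ESCs in the naive state and are widely used to derive EGCs.

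Values are levels, that is log2 intensities of a gene's probe from which the 75th percentile of the same array, also as log2, was subtracted; levels are compared only between arrays, never between genes. A difference is the level at day 2 minus the level at day 1. With 1 array a side there is no test and no replicate error. The error printed after a difference is that of the scanner's own model for the spots, and covers neither the labelling nor the culture. Over 158 probes printed as 10 spots and well above background on both arrays, the SD of a single-spot difference had a median of 0.085 (log2). A gene is called higher or lower at a difference of at least 2-fold, 1 on the log2 scale. Where the scanner did not find a gene well above background on 1 of the arrays, its value there was replaced by the dimmest signal that passed on that array (or kept, if higher), which makes the difference a bound, written "at least".

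The label of the cells was first checked. Of 6 PGC markers, 6 were well above background on both arrays: Pou5f1 had a level of 3.30 at day 2 and 3.45 at day 1, Dppa3 4.83 and 4.93, Kit 1.44 and 1.46, Dazl 3.16 and 2.78, Ddx4 1.13 and 1.95, and Nanos3 -2.44 and -0.37. Fibroblast markers were measured as well, and their summed level, on a linear scale relative to the array's 75th percentile, was 320 at day 2 with the inhibitors, 289 at day 2 with bFGF alone and 94.6 at day 1; of the 4 defining markers, Dcn, Lum, Col1a1 and Pdgfra, 4 were well above background on both arrays. Gonadal somatic markers summed to 17.5 at day 2 and 14.8 at day 1, with 1 of 12 compared called higher (Gata6, 1.03) and 2 lower (Wt1, -1.12, and Emx2, as a bound), and with Gata4 not well above background on either array. The 2 other probes of Gata6 differed by 0.21 and 1.04. Endothelial markers summed to 3.85 and 4.11, macrophage markers to 3.40 and 3.85 and erythroid markers to 0.346 and 0.344, with Cdh5, Adgre1 and Hbb-y not well above background on either array; the calls in these lists were 1 of 7 (the endothelial Esam, lower as a bound), 0 of 8 and 0 of 2 genes compared. In sorted bulk samples, fewer cells of a type and less RNA per cell cannot be told apart, and the part of the fibroblast-type RNA in any result below was not tested.

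The position of spots on the arrays matters for the largest differences. On the day 1 array, 39 of 43379 spots lay at least 0.75 (log2) below all of the other 13 arrays of PGCs, ESCs and EGCs, and 28 of the 39 had another such spot among their 18 nearest; 65 lay as far above, 22 of them beside another. On the day 2 array with the inhibitors 34 spots lay as far above the others, 23 of them beside another such spot, and 8 as far below. Genes whose spot has a deviating spot of either array and either direction among its 18 nearest are called near a deviating spot below, a rule added, and its distance and size settled, after the values were seen. They were 4.98% of the genes compared, 15.3% of those called higher and 10.3% of those called lower. Of these genes called higher, 28 lay on a thin diagonal line, in rows 477 to 515 and columns 39 to 55 of an array of 532 rows and 85 columns, and over these 28 the median difference between the 2 day 2 arrays, with and without the inhibitors, was -0.03. Guk1, which encodes guanylate kinase, was among them, with 2.78 at day 2 and -3.73 at day 1, while the 13 arrays other than day 1, day 2 included, ran from 2.69 to 4.22. Tollip, a regulator of Toll-like receptor signalling, differed by 4.86 at that probe and by 0.06 to 0.29 at its 2 other probes. Of the 15 largest rises measured on both arrays among genes with a symbol 11 were near a deviating spot, and of the 4 largest bounds upward 4 (Rsl1d1, Gpn2, Uckl1 and Xrcc2); of the 15 largest falls, 0 were. The 9 of those rises not yet named were Rit1, Ctsd, Klhl12, Tnks1bp1, Wdr34, Tpr, Krtcap3, Olfr738 and Ankrd34b, from 4.63 to 3.01; the other probes of Rit1, Ctsd and Klhl12 differed by 0.40, 0.02 and -0.04 in that order, and that of Krtcap3 by -1.07. Over 4 equal bands of the array's rows the share of genes called higher was 2.61%, 4.60%, 4.24% and 3.33%, from the first row to the last, and of those called lower 4.56%, 6.48%, 4.90% and 4.31%, so that calls were not spread evenly over the array.

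**Figure D1:**
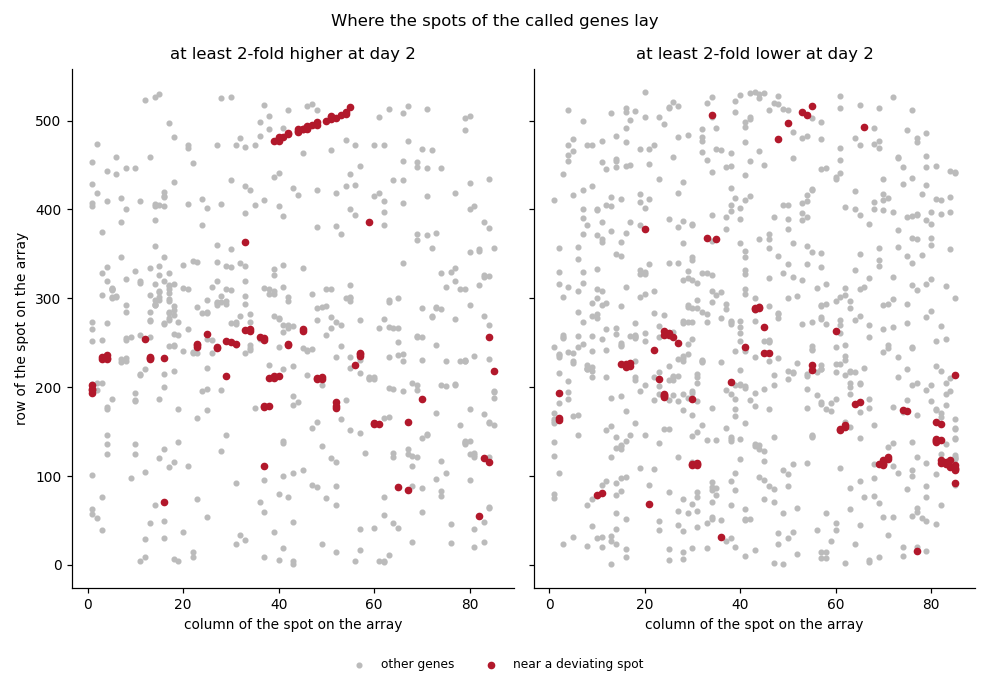
Row and column, on the array, of the spot of each gene called at least 2-fold higher (left) or lower (right) at day 2 with 2i and A83-01 than at day 1; red points are genes near a deviating spot and grey points the other called genes. The diagonal line of red points in rows 477 to 515 of the left panel holds 28 genes.

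Of 28103 genes named on the array, 16969 were well above background on at least 1 of the 2 arrays and were compared; 15454 were so on both. At day 2 with 2i and A83-01, 632 genes were at least 2-fold higher (3.72%) and 865 at least 2-fold lower (5.1%) than at day 1, 8.82% in all. Away from deviating spots the counts were 535 of 16124 (3.32%) higher and 776 (4.81%) lower. The median difference of all genes was 0.02, so the arrays were centred alike, and the middle 90% of genes lay between -1.01 and 0.85. The share called fell with the level: 21.7% of genes with a mean level under -4 were called, against 2.29% of those above 2. Where a called gene had another usable probe, every other probe lay in the same direction for 102 of 116 genes called higher and 164 of 182 called lower; every other probe also passed 2-fold for 53 and 93 of them, and 2 and 3 had a probe at least 2-fold the opposite way. With normexp background correction, an alternative, 295 genes were called higher and 389 lower.

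Targets of TGF-beta and activin signalling were among the genes lower at day 2 with the inhibitors. Of the 19 genes of that list 9 were at least 2-fold lower (5.1% of all genes were) and 0 at least 2-fold higher, with a median of -0.80 beside 0.02 for all genes; away from deviating spots 7 of 17 were lower, with a median of -0.66. With bFGF alone at day 2 the median of the list was -0.31, and between the 2 day 2 arrays, inhibitors minus bFGF alone, it was -0.59. The list was drawn up with earlier results of these data known, as were all those below. For every list below, the shares of all genes called, 3.72% higher and 5.1% lower, are the background of its counts.

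Lefty1, a secreted antagonist of Nodal that Nodal signalling itself induces, had a level of -3.64 at day 2 with the inhibitors, -1.63 at day 2 with bFGF alone and -1.20 at day 1, a difference of -2.44 ± 0.24 with the inhibitors and -0.43 with bFGF alone. Its relative Lefty2 was not well above background at day 2 with the inhibitors and was at least 4.53-fold lower than at day 1, though its spot is near a deviating one and the difference was -1.80 with bFGF alone. Pmepa1, a transmembrane inhibitor of Smad signalling, was at -4.0, -2.34 and -2.03 on the same 3 arrays, and its other probe differed by -2.10 with the inhibitors. Ltbp2, an extracellular protein of the latent TGF-beta binding family, differed by -1.95 with the inhibitors and by -0.18 with bFGF alone. In these genes the 2 day 2 arrays stood apart and bFGF alone lay close to day 1 (Lefty2 excepted).

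The inhibitory Smad7 differed by -1.14 ± 0.20 (-0.35 with bFGF alone), Skil, a repressor of Smad transcription, by -1.48 (-0.84), and Bhlhe40, a transcriptional repressor whose spot is near a deviating one, by -1.18 (-0.59). In Ccn2, a matricellular growth factor, the difference was -2.70 with the inhibitors and -1.55 with bFGF alone, and in Tagln, an actin-binding protein of smooth muscle, -3.34 and -2.63, so both genes were also at least 2-fold lower in the culture without inhibitors. Nodal itself, at -0.49 at day 2 with the inhibitors, -0.15 with bFGF alone and -0.16 at day 1, did not pass 2-fold.

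Of the ligands, receptors and Smads of the pathway, 1 of 19 was at least 2-fold higher and 2 were lower, with a median of -0.13. Tgfb3, a ligand, differed by 1.01 (0.93 with bFGF alone), Inhbb, which encodes an activin subunit, by -1.23 at the probe used and by 0.05 at another, and Smad6, an inhibitory Smad, by -1.09. Values of the receptors were within 1 of 0: Tgfbr1 -0.26, Tgfbr2 0.44, Acvr1b 0.20 and Acvr2b -0.13.

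Single additions at day 2, each 1 array, give further levels. Lefty1 was at -2.92 with the MEK inhibitor and -2.81 with the GSK inhibitor, and was not well above background with A83-01 alone or at day 3 with 2i and A83-01; at day 6 it stood at 0.60 and at day 10 at 4.58. Pmepa1 was at -3.87 with A83-01 alone, -2.45 with the MEK inhibitor and -2.40 with the GSK inhibitor, then at -4.06 at day 3, -3.18 at day 6 and -1.22 at day 10. Pmepa1 was not well above background in uncultured PGCs or at day 2 with 2i, A83-01 and 4OHT. On those 2 arrays the dimmest signal that passed had a level of -3.68 and -2.60, against -5.70 with A83-01 alone. With 2i, A83-01 and 4OHT the level of Pmepa1 was -3.87, the same as with A83-01 alone. Not passing on those arrays thus does not show a lower level than with A83-01 alone.

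Several feedback inhibitors and targets of ERK were lower as well. Of 19 genes 9 were at least 2-fold lower (5.1% of all genes were) and 0 at least 2-fold higher. The median was -0.86, against -0.23 with bFGF alone, and inhibitors minus bFGF alone at day 2 gave -0.63. Away from deviating spots 8 of 18 were lower, with a median of -0.81.

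Etv4, an ETS transcription factor downstream of FGF receptors, had a level of -2.11 at day 2 with the inhibitors, 0.27 at day 2 with bFGF alone and 0.70 at day 1, a difference of -2.81 ± 0.21, or 7.01-fold lower. That level was below all of the other 13 arrays, which ran from 0.27 to 2.00. Its relatives Etv1 and Etv5 differed by -2.05 and -1.18, against -0.51 and -0.74 with bFGF alone. Dusp6, a phosphatase that inactivates ERK, was at 2.68, 3.75 and 4.18 on the 3 arrays, and the other 13 arrays ran from 3.23 to 5.73. Spry4, an inhibitor of receptor tyrosine kinase signalling, was at -3.56, -2.05 and -1.27, again below the other 13 arrays (-2.42 to 0.59).

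The phosphatases Dusp2 and Dusp4 differed by -2.17 and -1.91, and the second probe of Dusp4 by -1.82. Phlda1, a growth-factor-induced gene near a deviating spot, differed by -1.15. Spry1 differed by -1.07 with the inhibitors and by -0.97 with bFGF alone. Other members of the same families were not called: Spry2 differed by 0.20 ± 0.20 and Dusp7 by 0.18. Ccnd1, encoding cyclin D1, differed by 0.11 with the inhibitors and by 1.00 with bFGF alone, and Myc by 0.01 and 0.33. Immediate early genes had a median of -0.05, with 1 of 16 lower (Egr3, as a bound, which turns to 0.59 with the mean of all its probes) and 0 higher; Fos differed by 0.52 and Egr1 by -0.17.

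The low levels of Etv4, Dusp6 and Spry4 were not seen on the array with the MEK inhibitor alone, where Spry4 was at -1.48. Etv4 was there at 1.17, with 1.67 under the GSK inhibitor, 1.65 under A83-01, 2.00 under 4-hydroxytamoxifen (4OHT, used in this series to activate AKT) and 1.04 under 2i, A83-01 and 4OHT together. Dusp6 was at 4.25 with the MEK inhibitor, 4.98 with the GSK inhibitor, 5.16 with A83-01, 5.73 with 4OHT and 5.24 with all agents. At day 3 with 2i and A83-01 Etv4 was at 0.70 and Dusp6 at 4.38, close to day 1, whereas Spry4 was at -2.32, Etv1 at -2.33 and Etv5 at -1.26, all below day 1. At day 6 the levels were 0.82 for Etv4, 3.89 for Dusp6, -0.98 for Spry4, 0.65 for Etv1 and 0.14 for Etv5. The arrays with single inhibitors, with 4OHT and of days 3 and 6 lay on other slides than the 2 arrays compared here. Slide and culture cannot be told apart in these levels. The additions are as labelled, and whether each array's label is right was not tested.

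**Figure D2:**
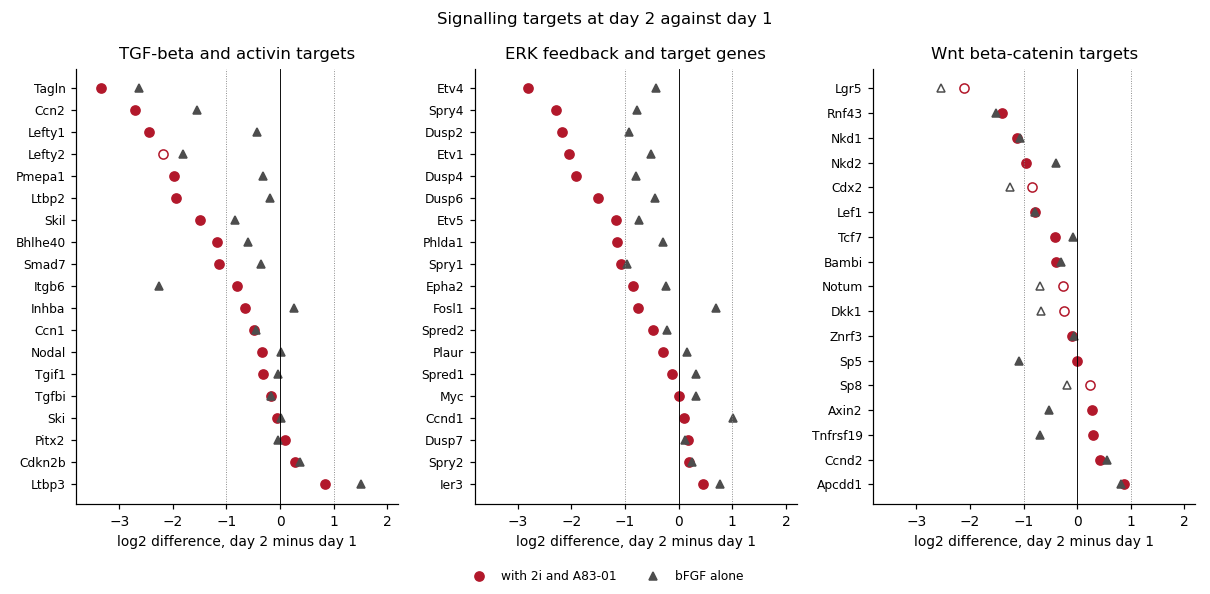
Log2 difference from day 1 of each compared member of 3 lists, at day 2 with 2i and A83-01 (red circles) and at day 2 with bFGF alone (grey triangles), 1 array a side; open symbols are bounds and dotted lines mark 2-fold. Etv4 lies at -2.81 with the inhibitors and -0.43 with bFGF alone, while Sp5 lies at 0 and -1.09.

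Of 17 targets of beta-catenin compared, 0 were at least 2-fold higher, which is near the 3.72% of all genes, and 3 lower (Lgr5, Rnf43 and Nkd1, none of them past 2-fold with normexp background correction), with a median of -0.27, beside -0.67 with bFGF alone. The other probe of Nkd1 differed by -0.72 with the inhibitors. Lgr5, a receptor for R-spondins, was not well above background on either day 2 array and was at least 4.34-fold lower than at day 1 with the inhibitors. Axin2, a scaffold of the beta-catenin destruction complex and a general target of the pathway, was at -2.71 at day 2 with the inhibitors, -3.51 with bFGF alone and -2.98 at day 1. Sp5, a zinc finger factor induced by Wnt signals, was at -3.21, -4.29 and -3.21, so that with the inhibitors it was level with day 1 and 1.08 above bFGF alone; with the GSK inhibitor alone it was at -1.98.

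Sp5 was the only one of 13 members of the list with a RefSeq promoter window to hold the TCF/LEF motif ATCAAAG, searched on both strands and found here as CTTTGAT, which occurs in 3.72% of all 27025 windows (250 bases before to 50 after the start of a gene). The window, chr2:70474673-70474972 of GRCm38.p6 on the plus strand, is shown because Sp5 differed between the day 2 arrays, with the motif in capitals; the match is a description and not a site.
Sp5: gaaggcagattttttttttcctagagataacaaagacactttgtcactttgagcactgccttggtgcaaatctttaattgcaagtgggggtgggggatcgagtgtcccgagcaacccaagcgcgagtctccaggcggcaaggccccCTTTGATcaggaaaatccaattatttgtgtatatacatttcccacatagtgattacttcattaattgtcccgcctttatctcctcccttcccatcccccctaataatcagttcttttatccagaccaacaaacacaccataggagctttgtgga
The ETS motif CCGGAAGT was in 0 of 13 windows of the ERK list (4% of all windows), searched on both strands as were the next 2. The SMAD motif GTCTAGAC was in 0 of 10 windows of the TGF-beta list (0.211%). The AP-1 motif TGAGTCA was in 1 of 13 and 1 of 10 (5.17%), those of Plaur and Ltbp3. Windows were at hand for only 13 of the 20 members of the ERK list and 10 of the 19 of the TGF-beta list, without Etv4 and Lefty1. The absence of the ETS and SMAD letters holds for these windows only.

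The genes of the inhibited kinases and receptors and their partners did not pass 2-fold in either direction (0 of 11). Map2k1, which encodes MEK1, differed by -0.07, Gsk3b by -0.16, Ctnnb1, which encodes beta-catenin, by 0.12 and Tcf7l1, a TCF repressor near a deviating spot, by 0.65.

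**Figure D3:**
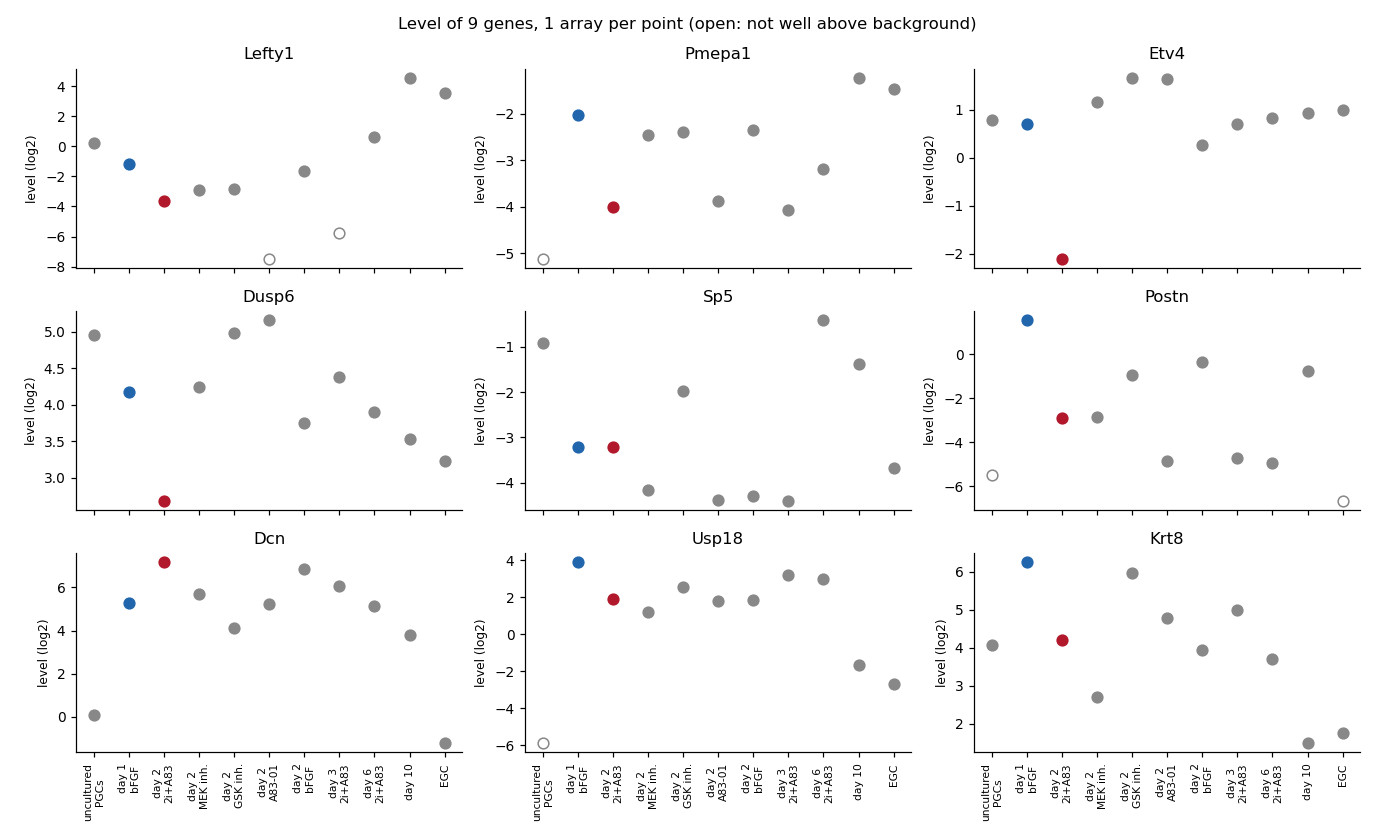
Level (log2, relative to the array's 75th percentile) of 9 genes on 11 arrays, 1 array per point, in the order uncultured PGCs, day 1, the 5 arrays of day 2, days 3, 6 and 10, and the EGC line; red is day 2 with 2i and A83-01, blue is day 1, and open points are not well above background. Etv4 and Dusp6 are lowest in the red point, and Postn is at -2.89 in red and 1.57 in blue.

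Most pluripotency genes, like most genes of the array, lay within 2-fold of day 1. Of 25 genes of the naive state 1 was at least 2-fold higher and 2 lower (3.72% and 5.1% of all genes were). Below 0 were 18 of the 25 and above it 7. Their median was -0.25 (-0.37 with bFGF alone), beside 0.02 for all genes. Pou5f1, the core octamer factor, differed by -0.14 ± 0.20 and Esrrb, an orphan nuclear receptor of the naive network, by -0.56, while Sox2 differed by -0.89 and Klf4, a factor used in reprogramming, by 0.95. Tbx3, a T-box factor that sustains self-renewal, was the member called higher, with 0.29 at day 2 with the inhibitors, 0.20 with bFGF alone and -0.93 at day 1. Nr0b1, a nuclear receptor of ESCs, was at -2.66, -1.44 and -0.55 on the same arrays, the lowest of all 14 arrays in the first, and then stood at -0.09 at day 3 and 3.05 at day 6. Utf1, a chromatin factor of pluripotent cells, differed by -1.31. Dnmt3l, a cofactor of DNA methyltransferases, was at -3.56 at day 2 with the inhibitors, -2.19 with bFGF alone and -2.76 at day 1, and at 1.99 by day 3. Nanog and Prdm14 were not analysed here.

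Calls among germ cell genes were about as frequent as among all genes. Of 18 PGC genes 0 were at least 2-fold higher and 2 lower, Nanos3 and Cxcr4. Below 0 were 15 of the 18 and above it 3, with a median of -0.25 beside 0.02 for all genes. Of all genes 3.72% were higher and 5.1% lower. Nanos3, an RNA-binding protein that protects PGCs from apoptosis, was at -2.44 at day 2 with the inhibitors, -1.31 with bFGF alone and -0.37 at day 1, 4.2-fold lower with the inhibitors. Levels of Prdm1 differed by -0.70, of Tfap2c by -0.78 and of Dnd1 by -0.34; these encode regulators of PGC specification and survival. Cxcr4, the chemokine receptor of migrating PGCs, differed by -1.17 ± 0.23 at the probe used and by -2.34 at the other. Among 27 later germline genes 1 was higher, Stra8, a retinoic acid-induced gate to meiosis (4.53 at day 2 with the inhibitors, 4.41 with bFGF alone, 2.85 at day 1), and 1 lower, Tdrd1, a piRNA pathway protein (-1.30).

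Interferon-stimulated genes formed the list with the lowest median. Of 20 members 12 were at least 2-fold lower (5.1% of all genes were) and 0 higher. The median was -1.21, against -1.62 with bFGF alone, and inhibitors minus bFGF alone gave 0.31. Away from deviating spots 9 of 17 were lower, with a median of -1.18. Usp18, which removes ISG15 from proteins, was at 1.88 at day 2 with the inhibitors, 1.86 with bFGF alone and 3.91 at day 1. Ifi44 was at -2.25, -2.62 and 0.64, and Mx2, an interferon-induced GTPase, at 0.77, 0.24 and 3.02. Rsad2, an antiviral enzyme, lies near a deviating spot, but its 2 other probes differed by -2.41 and -2.31. The chemokine Cxcl10, induced by interferon, differed by -1.93 with the inhibitors and by -1.83 with bFGF alone. In uncultured PGCs Ifi44, Mx2, Usp18 and Rsad2 were not well above background, on an array where the dimmest signal that passed had a level of -3.68.

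Fibrillar and other collagens were among the genes higher at day 2. Of 13 collagen genes 7 were at least 2-fold higher (3.72% of all genes were) and 0 lower, with a median of 1.03 (1.21 with bFGF alone). Col1a1 was at 5.37 at day 2 with the inhibitors, 5.27 with bFGF alone and 3.55 at day 1, and its 2 other probes differed by 1.88 and 1.96. Col1a2, the other chain of type I collagen, differed by 1.74, Col3a1 by 1.73, Col6a1 by 1.90 and Col6a2 by 2.07, with another Col6a2 probe at 0.76. The 2 other probes of Col3a1 differed by 0.82 and 1.64. Of the type IV chains of basement membranes, Col4a1 and Col4a2 differed by -0.80 and -0.54; outside the list, and looked up after the values were seen, Col4a4 and Col4a6 differed by 0.32 and 0.13, and Col4a5, by 1.23, was called higher. Dcn, the proteoglycan decorin, was at 7.19, 6.86 and 5.29, and its other probe differed by 0.91 with the inhibitors, which did not pass 2-fold. These genes were thus about as high with bFGF alone, and the median of the collagens between the 2 day 2 arrays was -0.04.

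Fibroblast markers had 6 of 11 genes higher and 1 lower (3.72% and 5.1% of all genes were), with a median of 1.19. The lower gene was Postn, which encodes the matrix protein periostin and had the largest fall of all genes with a symbol measured on both arrays: -2.89 at day 2 with the inhibitors, -0.36 with bFGF alone and 1.57 at day 1, a difference of -4.46 ± 0.22 with the inhibitors and of -1.93 with bFGF alone. It was at -2.85 with the MEK inhibitor, -0.94 with the GSK inhibitor and -4.84 with A83-01. It was the only fibroblast marker called lower, while the called-higher Pdgfrb is near a deviating spot. Of 17 genes of matrix remodelling 4 were higher and 2 lower: Lox, which cross-links collagen, differed by 2.38 (1.77 with bFGF alone), Timp3 by 1.25, Timp2 by 1.21 and Mmp2 by 1.19, and Thbs2 and Mmp9 were lower as bounds. The spot of Lox (row 312, column 5) lay close to Olfr1321, Clec4a2 and Olfr91 (rows 311, 310 and 309 of that column). These genes differed by 2.57, 2.34 and 2.26, and Plcl2 (row 313, column 4) by -1.20. The part of spot position in the rise of Lox was not tested. Genes of mesenchymal transition had a median of 0.35, with 0 of 12 called.

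Of 15 epithelial junction and keratin genes 5 were at least 2-fold lower (5.1% of all genes were), 10 did not pass and 0 were higher, with a median of -0.74, beside -1.38 with bFGF alone. The keratins Krt8 and Krt18, partners in simple epithelia, differed by -2.07 and -2.17, with Krt8 at 4.19 at day 2 with the inhibitors, 3.95 with bFGF alone and 6.26 at day 1. The claudins Cldn4 and Cldn6, tight junction proteins, differed by -1.24 and -1.45, and Ocln by -1.29. Cdh1, the E-cadherin of PGCs and ESCs, differed by -0.31 ± 0.06, and was not called. The median between the 2 day 2 arrays was 0.36.

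**Figure D4:**
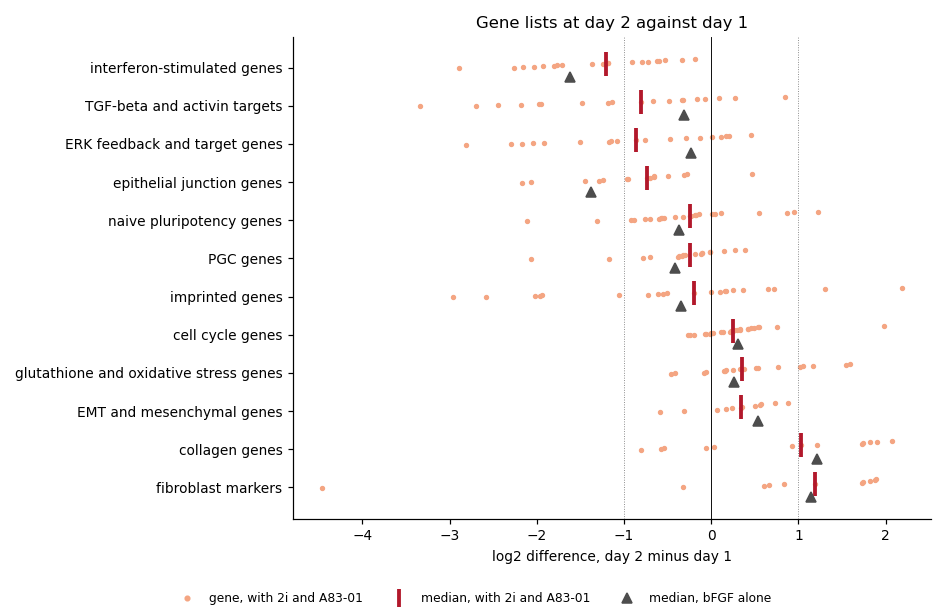
Log2 difference from day 1 of each compared gene (orange points) of 12 lists at day 2 with 2i and A83-01, with the list median (red bar), and below it the median at day 2 with bFGF alone (grey triangle); 1 array a side, dotted lines at 2-fold. The median is -1.21 for interferon-stimulated genes and 1.19 for fibroblast markers.

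Markers of kidney tubule and developing nephron, counted because mesonephros adjoins the genital ridge, were lower in 4 of 12 genes and higher in 1. Their median was -0.66, and of all genes 5.1% were lower and 3.72% higher. Lhx1, a LIM homeobox factor of nephric duct, was at -2.75 at day 2 with the inhibitors, -1.39 with bFGF alone and 0.30 at day 1, and Hnf4a, a factor of proximal tubule and liver, was at least 5.38-fold lower, but gives 0.24 with the mean of all its probes and then is not lower. Pax8, a nephric factor, differed by -1.41 at the probe used and by -0.14 at another. Keg1 differed by -2.39, and Aqp1, the water channel, by 1.43.

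Imprinted genes had 2 of 21 members higher and 6 lower (3.72% and 5.1% of all genes were). Igf2, the fetal growth factor, was at 0.17 at day 2 with the inhibitors, -0.23 with bFGF alone and 3.13 at day 1, with another probe at a difference of -3.04. Dlk1, a Notch-related membrane protein, differed by -2.58, Nnat by -2.02, Cdkn1c, a cyclin-dependent kinase inhibitor, by -1.96, Mest by -1.94 and H19, the noncoding neighbour of Igf2, by -1.06. The pair called higher was Meg3, a noncoding RNA (1.31), and Zim1 as a bound, which lies near a deviating spot. Of 26 Hox genes 1 was higher and 3 lower, with a median of -0.04.

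Of the other developmental lists, primed epiblast genes had 0 of 8 higher and 3 lower (Fgf5 as a bound, Pou3f1 at -1.05 and Wnt3 at -1.43), and endoderm genes 1 of 14 higher (Gata6) and 4 lower, among them Lama1, a laminin chain (-2.23), and Afp, alpha-fetoprotein (-1.32). The other probe of Wnt3 differed by -0.29, and the 2 others of Gata6 by 0.21 and 1.04. FGF ligands and receptors had 0 of 11 higher and 2 lower (Fgf5 and Fgfr4, -1.57), and the 2 other probes of Fgfr4 differed by -0.50 and -0.20. Trophectoderm genes had 0 of 9 called and two-cell-like genes 1 of 3, Usp17lc, higher as a bound. Smooth muscle genes had Tagln lower out of 12, chemokines and cytokines 1 of 13 higher (Ccl20, 1.03) and 3 lower (Cxcl10, Cxcl14 at -1.03 and Il11 at -1.24). DNA methylation genes (0 of 12) and p53 targets (0 of 18) held no call, and heat shock genes 1 of 16, Hspa1a, a stress-induced chaperone, at -1.61.

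Targets of BMP signals split. Of 11 compared, 1 was higher and 4 lower, with a median of -0.02: Id1 was at 2.13 at day 2 with the inhibitors, 2.17 with bFGF alone and 1.06 at day 1, and Id2 at 0.46, 1.02 and 2.41, though the 2 other probes of Id2 differed by -2.15 and 0.01. Id3 differed by 0.05. These 3 genes encode inhibitors of helix-loop-helix factors.

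Of 18 glutathione and oxidative stress genes 5 were at least 2-fold higher (3.72% of all genes were), 13 did not pass and 0 were lower, with a median of 0.35 (0.26 with bFGF alone). Mt1 and Mt2, which bind metals, differed by 1.55 ± 0.06 and 1.59 ± 0.20, Hmox1 by 1.17, Srxn1 by 1.06 and Gsta4 by 1.01, with 1.56, 1.65, 0.95, 0.86 and 0.86 in that order with bFGF alone. The 2 other probes of Srxn1 differed by 0.73 and 0.76 with the inhibitors. Of cell cycle genes 1 of 25 was called, Mcm6, which lies near a deviating spot, and the median was 0.25; away from such spots 0 of 24 were. Among cyclin-dependent kinase inhibitors and D-type cyclins, Cdkn2c (1.35) and Cdkn2d (1.29) were higher and Cdkn1c lower. Metabolic lists were flat: 0 of 18 glycolysis genes and, of 24 genes of sterol and fatty acid synthesis, 1 (Scd1, a fatty acid desaturase, 1.14) were called.

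Among genes with a symbol (entries named only by a clone or accession, Rik names included, were passed over in every such ranking, and some of them had larger differences), the largest falls measured on both arrays after Postn were those of Gc, the vitamin D-binding protein (-3.83 with the inhibitors, -2.26 with bFGF alone), Spink1, a trypsin inhibitor (-3.70 and -3.78), Thbd, thrombomodulin (-3.52 and -2.14), the keratin Krt20 (-3.50 and -1.39) and Dach1, a transcription factor (-3.46 and -2.68, with another Dach1 probe at -1.28). Cxcl11 followed at -3.35 with the inhibitors and -3.78 with bFGF alone, Ptprr, a phosphatase that acts on ERK, at -3.31 and -2.20, Ifi202b at -3.27 and -2.84, and Sox11 at -3.25 and -1.96. The 5 other probes of Sox11 differed by -3.64 to -0.79 with the inhibitors. Spink1 was at -1.74 at day 2 with the inhibitors, -1.82 with bFGF alone and 1.96 at day 1, and had stood at 6.14 in uncultured PGCs. The others of the 15 were Ido2 (-3.20), Ddn (-3.10), Lhx1, Tagln and Igf2. Among genes with a symbol, the 4 largest falls as bounds were Lhx1os, Nt5c1b, Clstn2 and Gpr149, from at least 14.7-fold to at least 9.10-fold; Nt5c1b and Gpr149 are near a deviating spot, and the only other usable probe of Clstn2 differed by 0.27. Away from such spots Uroc1 and Clec18a took their place, at least 8.62-fold and at least 8.10-fold lower.

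Away from deviating spots and among genes with a symbol, the rises measured on both arrays were led by Mrgprf, an orphan receptor (3.41 with the inhibitors, 2.52 with bFGF alone), Spem2 (3.09 and 0.62), the phosphatase Ppef1 (3.07 and 2.78, and 3.58 with the inhibitors at another probe) and Aldh1a7, an aldehyde dehydrogenase (2.96 and 2.32). Kcnj8, a potassium channel subunit, followed at 2.78 with the inhibitors and was not well above background with bFGF alone. Next came Eya1, a transcriptional coactivator (2.72 and 1.02), Rasgrp1, an activator of Ras (2.54 and 1.06, with another probe at 0.68 with the inhibitors), Spindoc (2.51 and 2.06), Gdf10, of the TGF-beta superfamily (2.44 and 2.94), Vegfd, a lymphatic growth factor (2.40 and 1.36), and Lox. Slc34a2, a phosphate transporter, differed by 2.38 with the inhibitors and -0.19 with bFGF alone, and its other probe by 0.81 with the inhibitors. Igfbp6, which binds IGF2, differed by 2.35 and 2.22, Elac1 by 2.30 and 0.77, and Prelp, a matrix proteoglycan, by 2.26 and 2.19. Kcnj8 and Slc34a2 were not near a deviating spot by the rule above, but that rule does not catch every group of neighbouring calls. Kcnj8 (row 247, column 18) lay close to Syt6 (row 246, column 17) and C1qtnf1 (row 246, column 18), at 3.36 and 1.49. Eya1 (row 235, column 4) lay close to Gabarapl2 (row 236, column 4), called higher at 1.05 and near a deviating spot. Ifi202b, called lower, was also close (row 234, column 2). Lox lay in such a group too, as given above. The part of spot position in the rises listed here was not tested. The 4 largest bounds upward there among genes with a symbol, Lao1, Daw1, Glycam1 and Ceacam13, were not well above background at day 1 or at day 2 with bFGF alone. They too lay close to other calls. Ceacam13 lay beside an entry without a symbol, called higher at 4.07. Glycam1 lay beside Lrrc63 (2.68) and Lao1 beside an entry without a symbol (1.01), both near a deviating spot. Daw1 lay close to Ido2, called lower. The part of spot position in these bounds was not tested.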

How the data were processed

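The deposited scanner files hold spot intensities, which the authors made from 1-colour arrays with Agilent Feature Extraction 10.7.3.1, per the submitters' processing notes, background-corrected with spatial detrending on each array but not brought to a common scale, per the file headers. The deposited value table also holds intensities, and served as an alternative. No probe of these arrays was saturated.

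Outlier spots were left out, and the log2 values of repeat spots were averaged. Of 41174 probes, 27013 took their name through an accession in RefSeq's table, 5017 through a symbol and 799 through a synonym; 8345 kept the name in the file. Among a gene's probes the brightest over all 22 arrays was used. The arrays compared lay on 1 slide with day 2 bFGF alone; 57.7% of probes were well above background at day 2 with the inhibitors and 60.2% at day 1, and this limits the precision for dim genes. The difference code was tested on simulated data. Analysis used Python 3.11.15 and, for the alternatives, limma 3.58.1 in R 4.3.3.

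Members, the 38 lists (616 genes) and alternatives were chosen with earlier results of these data known. Genes named, of those with a symbol, are the 15 largest rises and falls measured on both arrays, the 4 largest bounds each way, up to 5 called members of each list, and a fixed set of germ cell, pluripotency and signalling genes. The deviating-spot rule was settled after a looser one (0.5 log2) had been tried. The naming rule was repeated without genes near deviating spots, and members beyond it were named after their values were seen. Promoter sequence is from RefSeq, GRCm38.p6. A few list members are not reported here and were left out of the lists.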

Additional observations from a re-analysis of the deposited data

How the results depend on the processing

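No paired analysis was possible because each group has 1 array and the labels carry no replicate numbers. The count of genes called higher, 632, became 295 with normexp background correction, 407 with only genes well above background on both arrays, 1228 with no filter on dim probes, 1648 at a 1.5-fold and 256 at a 3-fold threshold. The count called lower, 865, became 389, 562, 1675, 1790 and 382 under the same alternatives. Fewer or more genes enter under the filters and thresholds by construction. The normexp correction also added an offset of 50 to every intensity. The 75th percentile of the intensities was 555 at day 2 with the inhibitors and 631 at day 1. An added constant makes the differences of dim genes smaller by construction, and its part in the drop with normexp was not tested. Quantile normalization, centring on the median, the mean of all probes, outlier spots kept, the authors' value table and leaving out genes near a spot deviating by 0.75 or by 0.5 log2 (chosen after seeing the data; 472 higher and 712 lower with 0.5) moved neither count by over 1.5 times. With no filter the median of all genes was 0.18. Of 143 named genes called and comparable, 110 stayed past 2-fold in their direction with normexp; Lefty2, Pmepa1, Lgr5, Rnf43 and Nkd1 did not. With the mean of all probes 2 turned sign: Egr3 (0.59) and Hnf4a (0.24). Over all alternatives the median was between -0.93 and -0.66 for TGF-beta targets, -0.99 and -0.76 for ERK targets, -1.38 and -1.18 for interferon-stimulated genes and 0.91 and 1.03 for collagens. For fibroblast markers it was between 0.83 and 1.46 and for beta-catenin targets between -0.60 and -0.03.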
